A study of Homo sapiens with 4 samples.

Results

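The genes described here encode enzymes that attach ubiquitin to proteins or take it off, in m7G MeRIP-seq peak lists of HepG2 cells. They were chosen by gene name alone, as every gene of either list whose name begins with UBE2, UBE3, USP, FBXL, FBXO, FBXW, TRIM, RNF, KLHL or OTUD as a family stem. The rule found 96 of the 3769 genes with a peak (2.55%), with 78 of 3355 peaks in replicate 1 and 114 of 4747 peaks in replicate 2. The names cover more than ubiquitin ligases and deubiquitinases: the UBE2 genes encode conjugating enzymes, and among them UBE2M carries the ubiquitin-like protein NEDD8.

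HepG2 is a human hepatocellular carcinoma cell line, grown here without any treatment. The design has 2 m7G immunoprecipitation (IP) samples, whose poly(A) RNA was captured by an anti-m7G antibody (m7G is N7-methylguanosine), and 2 input samples of the same kind of RNA without antibody. Each IP sample has 1 list of peaks, made by the authors, and no values of the input samples were used. The labels do not say whether the 2 samples came from separate cultures, so the spread between them may be technical. A peak here is part of an mRNA that was called enriched, and its fold enrichment and its -log10 p are the authors' own values throughout. Read depth is unknown, and folds therefore carry no interval of their own. A gene without a peak may lack m7G there or may give too few reads, and these lists cannot tell the cases apart. Of 23 hepatocyte marker genes, 12 had peaks. Of 10 immune markers 2 had peaks (CD68 and LYZ), and of 10 endothelial and stellate markers 1 (ACTA2). All of these marker genes with a peak had peaks in both lists. Of all coding genes in RefSeq 18.7% had a peak, and of all genes with a peak 51.7% were in both lists.

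Ubiquitin is passed along a cascade: an E1 enzyme activates it, an E2 enzyme carries it, and an E3 ligase brings the loaded E2 to a substrate. RING ligases, such as most RNF and TRIM proteins, let the E2 pass ubiquitin straight to the substrate, while HECT ligases such as the UBE3 proteins first take it onto themselves. F-box and KLHL proteins are substrate adaptors of cullin-RING ligases, and USP and OTUD proteins are proteases that remove ubiquitin. N7-methylguanosine forms the cap at the 5′ end of mRNAs and has also been described within mRNAs. The labels name no removal of the cap, and which of these forms a peak at a 5′ end holds was not tested.

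Peaks at gene starts were among the peaks that both lists held, and the stretches below show where the peak that reached farthest upstream began. Of the 96 genes, 75 had a start window in the RefSeq table (GRCh38.p14), and in 10 of these a peak of each list reached into the window. The 7 printed here are 90 bases long and run 5′ to 3′ on the gene's strand, with capitals for bases covered by a peak in at least 1 list. The capitals lie in peaks of both lists in RNF149 and UBE2R2 only. They come from replicate 1 alone in FBXO42, and from replicate 2 alone in FBXO17, RNF187, UBE2O and UBE2S. The FBXO17 stretch lies wholly upstream of its RefSeq start. The stretches of UBE2M, RNF126 and USP25 are not printed.
FBXO17: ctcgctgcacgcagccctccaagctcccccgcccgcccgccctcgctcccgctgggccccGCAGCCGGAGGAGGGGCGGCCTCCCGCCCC
FBXO42: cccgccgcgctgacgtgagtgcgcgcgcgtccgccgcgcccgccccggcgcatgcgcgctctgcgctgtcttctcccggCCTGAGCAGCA
RNF149: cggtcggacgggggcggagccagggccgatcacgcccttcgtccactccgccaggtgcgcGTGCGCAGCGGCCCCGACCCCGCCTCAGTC
RNF187: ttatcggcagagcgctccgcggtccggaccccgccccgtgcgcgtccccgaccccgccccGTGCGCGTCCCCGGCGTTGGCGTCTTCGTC
UBE2O: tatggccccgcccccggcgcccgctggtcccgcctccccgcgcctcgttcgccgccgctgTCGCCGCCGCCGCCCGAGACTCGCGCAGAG
UBE2R2: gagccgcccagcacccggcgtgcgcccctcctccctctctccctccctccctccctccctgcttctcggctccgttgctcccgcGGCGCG
UBE2S: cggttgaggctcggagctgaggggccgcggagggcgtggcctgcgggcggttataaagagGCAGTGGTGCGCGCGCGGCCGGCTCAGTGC

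These stretches lie at chr19:38975784-38975873 (FBXO17), chr1:16352451-16352540 (FBXO42), chr2:101308687-101308776 (RNF149) and chr1:228487307-228487396 (RNF187). The other 3 lie at chr17:76453147-76453236 (UBE2O), chr9:33817100-33817189 (UBE2R2) and chr19:55407779-55407868 (UBE2S). In RNF149 the peaks of both lists began at the same base, 15 bases upstream of the RefSeq start. In UBE2R2 both began 24 bases downstream of the start, although the peak's midpoint lies 2345 nt inside the full gene span, which begins farther upstream. In RNF187 the peak began 15 bases downstream of the start in replicate 1 and 15 bases upstream of it in replicate 2, so the lists bracket the annotated start. The start windows of the member genes were rich in G and C, at a median of 69.3% over 75 genes, against 68.3% over 2922 genes with a peak in either list and 62.3% over 15843 coding genes of the table. The member median thus lay near that of all genes with a peak.

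Both lists held peaks in 53 of the 96 member genes, which was 55.2% (95% Wilson interval 45.3 to 64.8%, counting error only), against 51.7% of all 3769 genes. The share of all genes lies inside the members' interval. A further 14 members had peaks in replicate 1 alone and 29 in replicate 2 alone, the longer list. RefSeq lists 387 coding genes that match the name rule, of which 291 had no peak. Of those, 25 are USP17L copies, a cluster of near-identical genes. Reads of such copies can be hard to place, and whether this bears on their lack of peaks was not tested. Of the conjugating enzymes, 17 of 36 genes (47.2%) had a peak in either list, against 18.7% of all 20056 coding genes in RefSeq. The ligases and adaptors counted together had 64 of 266 (24.1%), of which 35 had peaks in both lists. The deubiquitinases had 15 of 85 (17.6%), a total that includes the USP17L copies, with 8 in both lists. Several peaks in 1 gene were found for 9 members in replicate 1 (13.4% of its members, against 23.9% of all its genes) and 24 in replicate 2 (29.3%, against 30.2%). FBXL19 had the most over both lists, 9, followed by TRIM28 with 6 and FBXO2 with 5.

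**Figure D1:**
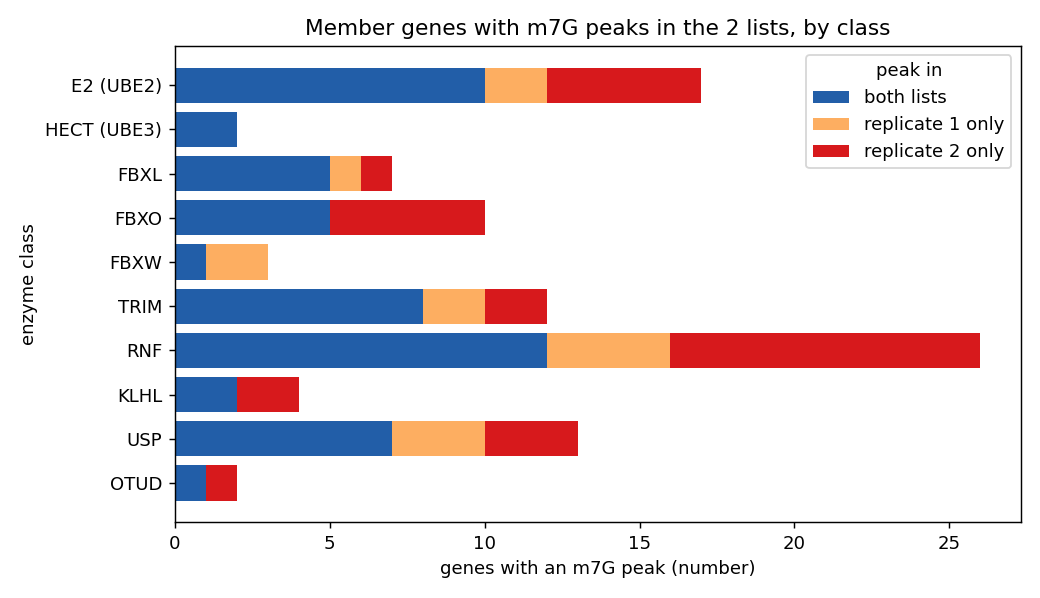
Number of member genes with an m7G peak, by enzyme class, split into genes with a peak in both lists, in replicate 1 only and in replicate 2 only. RNF proteins (26 genes) and E2 enzymes (17 genes) are the longest bars, and no FBXO or KLHL gene had peaks in replicate 1 only.

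Overlapping peaks were counted as shared where they covered at least 50% of the shorter peak in the same gene and on the same strand. By that rule 50 peaks in 42 member genes were shared. They made up 64.1% of the members' replicate 1 peaks, against 65.1% of all peaks, and 43.9% of their replicate 2 peaks, against 45.4% of all peaks. Member peaks were thus shared about as often as peaks in general. The shared member peaks had a median -log10 p of 6.56 in replicate 1 (n = 50) and 6.77 in replicate 2 (n = 50). The member peaks without a partner had 3.69 in replicate 1 (n = 28) and 4.245 in replicate 2 (n = 64). The same order was seen over all peaks, with 6.94 for shared and 4.2 for unshared peaks in replicate 1, and 7.93 for shared and 4.195 for unshared peaks in replicate 2.

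The median fold enrichment of member peaks was 3.90 in replicate 1, against 3.71 over all peaks, and 4.08 in replicate 2, against 3.87 over all peaks. The mean of the members' medians was 3.99 ± 0.127 (SD, n = 2). Folds of member peaks ran between 1.35 and 37.1 in replicate 1 and between 1.48 and 38.0 in replicate 2. Folds of 10 or more were held by 5 member peaks in replicate 1 (6.41%, against 7.42% of all peaks) and by 14 in replicate 2 (12.3%, against 8.09% of all peaks). Some fold values recur: a value held by at least 20 peaks of its list was found at 12 member peaks in replicate 1 (15.4%, against 17.2% of all peaks) and at 37 in replicate 2 (32.5%, against 31.5% of all peaks). The commonest value was 7.42 in replicate 1, held by 107 peaks with RNF24 and USP9X among them. In replicate 2 it was 6.33, held by 196 peaks with FBXO17, UBE2J1, UBE3A and USP9X among them. Such equal values give no order among these genes.

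Peaks were placed by the midpoint of their exon blocks, and those within 200 nt of the 5′ end of the gene span, or beyond it, were counted as 5′-end peaks. Of the members' peaks, 28 in replicate 1 (35.9%) and 30 in replicate 2 (26.3%) were 5′-end peaks, against 27.4% and 21.7% of all placed peaks in the same lists. The members' mean over the lists was 31.1% ± 6.78 (SD, n = 2), and the lists thus differed by more than the members differed from all peaks. Measured to the nearest RefSeq start, 24 of 60 peaks in replicate 1 (40.0%) and 23 of 87 in replicate 2 (26.4%) lay within 200 nt, against 30.8% and 24.0% of all peaks in genes with a start window. The median fold of the members' 5′-end peaks was 3.855 in replicate 1 and 4.305 in replicate 2, against 4.95 and 4.92 over all 5′-end peaks of the same lists. At the 3′ end lay 3 member peaks in replicate 1 (3.85%, against 3.43% of all placed peaks) and 6 in replicate 2 (5.26%, against 3.48%). Spliced peaks, which join more than 1 exon block, numbered 16 in replicate 1 (20.5%, against 26.4% of all peaks) and 22 in replicate 2 (19.3%, against 28.2% of all peaks), a mean of 19.9% ± 0.859 (SD, n = 2). The median peak length was 150.5 nt in replicate 1 and 151 nt in replicate 2, against 151 nt over all peaks of each list.

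**Figure D2:**
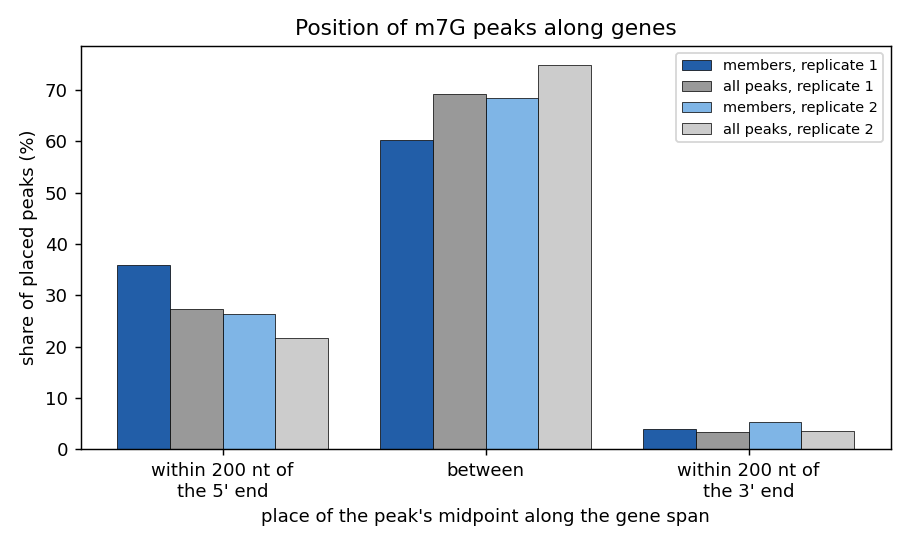
Share of placed peaks (%) within 200 nt of the 5′ end of the gene, between the ends, and within 200 nt of the 3′ end, for members and for all peaks of each list. The member bars at the 5′ end stand at 35.9% in replicate 1 and 26.3% in replicate 2, and the bars of all peaks at 27.4% and 21.7%.

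The E2 conjugating enzymes had peaks in both lists in 10 genes, in replicate 1 alone in 2 and in replicate 2 alone in 5. All 10 genes of the first kind had a shared peak, 12 peaks in all, and 10 of the 12 had the higher fold in replicate 2, against 30 of the 50 shared peaks of all members and 54.9% of those of all genes. UBE2M, the E2 that loads NEDD8 onto cullins and so switches cullin-RING ligases on, had the strongest p-values of the class. Its spliced 5′-end peak, chr19:58557144-58558857 in replicate 1 and chr19:58557144-58558827 in replicate 2, had a fold of 7.58 and a -log10 p of 70.4 in replicate 1, and a fold of 9.39 and a -log10 p of 55.4 in replicate 2. Its other peak had the same bounds in both lists, chr19:58555861-58556040, with folds of 3.33 in replicate 1 and 4.43 in replicate 2. UBE2O, a large enzyme that works as E2 and E3 in 1 chain, had close folds at its start, 7.86 in replicate 1 and 8.10 in replicate 2. The replicate 2 peak of UBE2O joined the start to a block far downstream (chr17:76405546-76453176), and that list held 2 further UBE2O peaks at folds of 3.25 and 3.09.

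UBE2R2, a CDC34-type E2 that serves cullin-RING ligases, had an identical 659-nt peak in both lists (chr9:33817184-33817842), with folds of 5.50 in replicate 1 and 3.54 in replicate 2. UBE2D2, an E2 used by many RING ligases, had a spliced peak with folds of 2.64 in replicate 1 and 2.98 in replicate 2. The p-values of both were far from the threshold: the -log10 p of UBE2R2 was 44.7 in replicate 1 and 52.6 in replicate 2, and that of UBE2D2 was 60 in replicate 1 and 42.9 in replicate 2. The folds behind these p-values were no higher than 5.50.

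The widest gaps between the lists in this class were at UBE2S and UBE2K. UBE2S, which extends ubiquitin chains for the anaphase-promoting complex, had a spliced 5′-end peak with folds of 2.26 in replicate 1 and 12.7 in replicate 2, a ratio of 5.62, although its -log10 p was 8.89 in replicate 1 and 9.12 in replicate 2. The value 12.7 was held by 54 peaks of replicate 2 and is 2 times the commonest fold of that list within rounding. UBE2K had folds of 2.97 in replicate 1 and 10.3 in replicate 2, with a peak 61 nt long in replicate 1 and 180 nt long in replicate 2. UBE2H, the E2 of the CTLH ligase complex, had 4.69 in replicate 1 and 9.49 in replicate 2, and UBE2Q1 had 3.18 in replicate 1 and 7.91 in replicate 2. These 4 genes were all higher in replicate 2, where the UBE2H fold of 9.49 was held by 63 peaks of the list. UBE2G1, an E2 that also works with cullin-RING ligases, went the other way with 5.30 in replicate 1 and 2.81 in replicate 2. UBE2Z, an E2 charged by UBA6, had 2 shared peaks of low fold, 1.84 and 2.41 in replicate 1 and 2.41 and 2.58 in replicate 2.

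Of the E2 genes with peaks in 1 list, UBE2A and UBE2C, which starts chains for the anaphase-promoting complex, were in replicate 1 with folds of 2.17 and 3.53. Genes in replicate 2 alone included UBE2J1, an E2 of the endoplasmic reticulum membrane (6.33), UBE2Q2 (5.27), the ISG15-carrying UBE2L6 (3.16) and UBE2D4 (5.62). The UBE2D4 peak lies in the span of URGCP as well, and a further UBE2S peak of replicate 2 (fold 2.02) lies in the span of RPL28. The UBE2J1 peak lies almost wholly upstream of its gene span. Whether the reads at these peaks came from the named gene cannot be told from the lists.

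**Figure D3:**
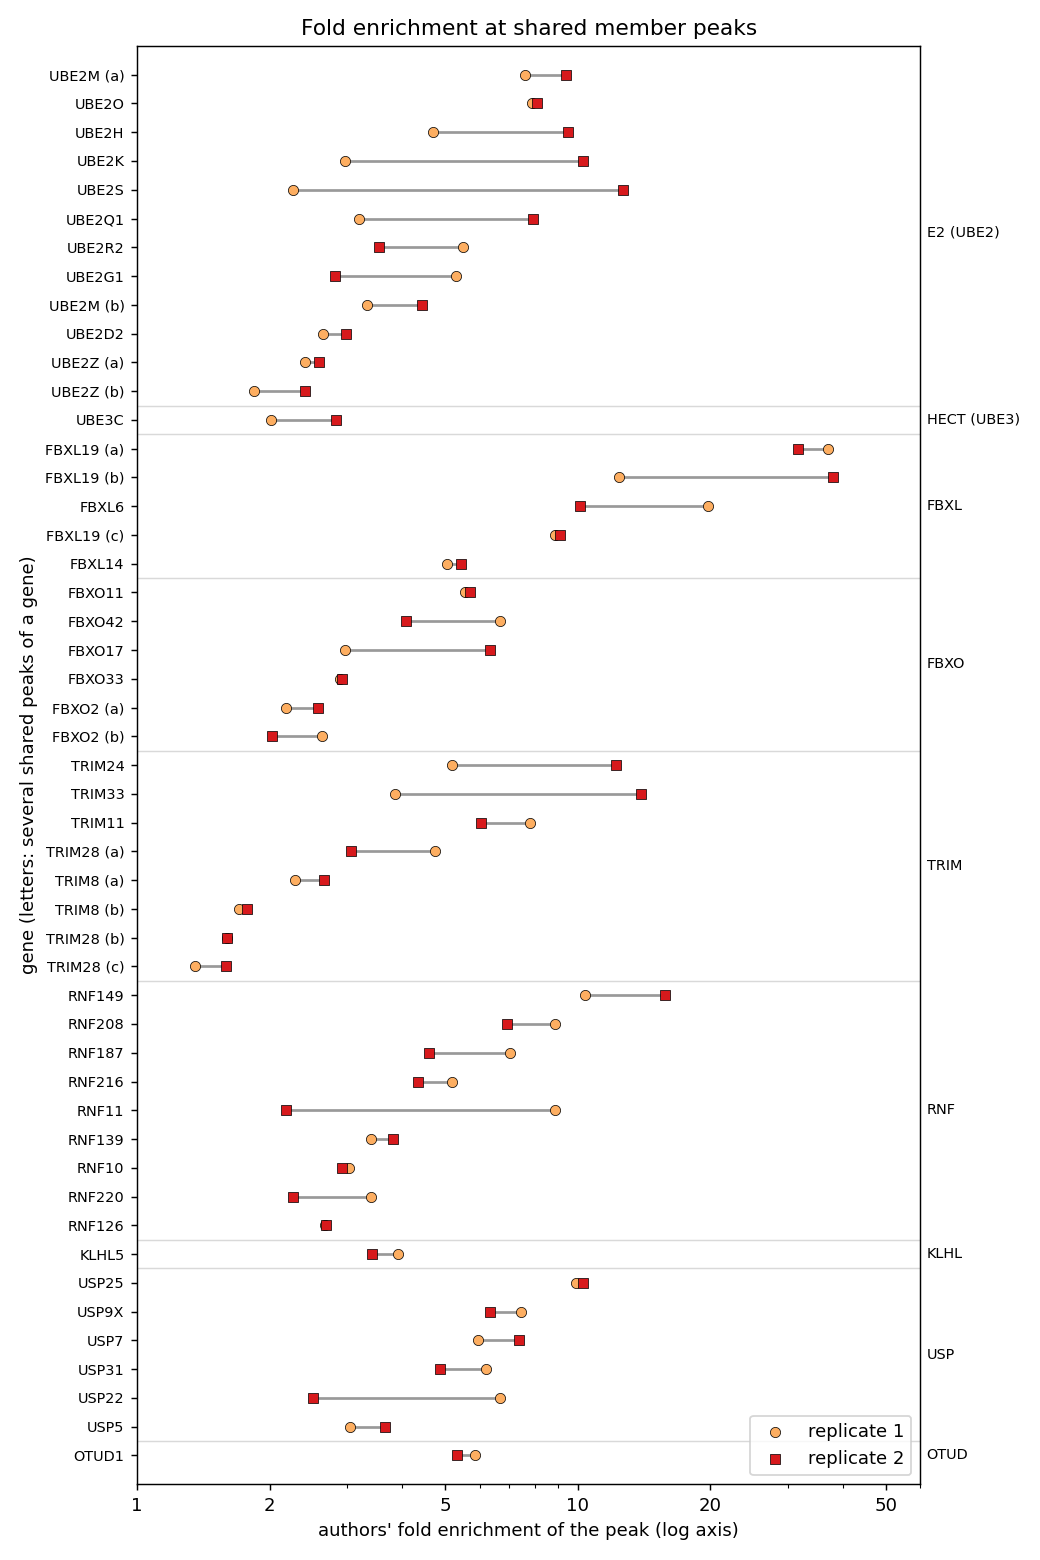
The authors' fold enrichment (log axis) of shared member peaks in replicate 1 (circles) and replicate 2 (squares), grouped by class, with a line joining the values of a peak. FBXL19 reaches 37.1 in replicate 1 and 38.0 in replicate 2, and UBE2S has the longest line, with 2.26 in replicate 1 and 12.7 in replicate 2.

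The HECT class of the rule held UBE3A and UBE3C, both with peaks in both lists. UBE3C, a ligase that associates with the proteasome, had a shared 5′-end peak with folds of 2.01 in replicate 1 and 2.83 in replicate 2. UBE3A, the E6AP ligase whose loss in neurons causes Angelman syndrome, had a peak at chr15:25438878-25438938 with a fold of 2.87 in replicate 1 and at chr15:25438489-25438698 with a fold of 6.33 in replicate 2. The UBE3A peaks did not overlap, so the gene, but no site in it, was common to the lists.

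The RNF proteins were the largest class, with 26 of 85 genes, of which 12 were in both lists, 4 in replicate 1 alone and 10 in replicate 2 alone. The class held 9 shared peaks, 6 with the higher fold in replicate 1 and 3 with the higher fold in replicate 2. RNF149, a membrane RING protein, had the highest folds among the shared RNF peaks, 10.4 in replicate 1 and 15.8 in replicate 2, at a 91-nt peak with the same bounds in both lists (chr2:101308626-101308716), which begins at the start printed above. Both folds are recurring values, held by 26 peaks of replicate 1 and 35 peaks of replicate 2. RNF187 had 7.03 in replicate 1 and 4.6 in replicate 2 at a 5′-end peak, of which only that of replicate 2 reaches into the printed stretch. RNF10 had folds of only 3.03 in replicate 1 and 2.92 in replicate 2, but the smallest p-values of the class: its 418-nt peak, identical in both lists (chr12:120534508-120534925), had a -log10 p of 68.8 in replicate 1 and 67.0 in replicate 2. The RNF10 peak also lies in the span of the coding gene LOC128071547.

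The other shared RNF peaks had folds no higher than 5.19, except those of RNF11 and RNF208. RNF126, a ligase of the BAG6 quality-control pathway, had 2.67 in replicate 1 and 2.69 in replicate 2. RNF139, a sterol-linked ligase of the endoplasmic reticulum also known as TRC8, had 3.39 in replicate 1 and 3.80 in replicate 2. RNF216, an RBR ligase, had 5.19 in replicate 1 and 4.33 in replicate 2. Its midpoint lay 2394 nt from the 3′ end of the gene span in replicate 1 and 2379 nt from it in replicate 2. RNF220 had 3.40 in replicate 1 and 2.26 in replicate 2 at a peak with the same bounds in both lists. RNF11 stood apart with 8.90 in replicate 1 and 2.18 in replicate 2, with a -log10 p of 3.70 in replicate 1 and 3.0 in replicate 2. The value 8.90 was held by 28 peaks of replicate 1. RNF208 had the only shared 3′-end peak among the RNF genes, chr9:137220277-137220486 in replicate 1 and chr9:137220277-137220426 in replicate 2, with folds of 8.90 in replicate 1 and 6.90 in replicate 2.

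In replicate 2 alone were RNF40, which ubiquitinates histone H2B together with RNF20 (folds 8.86 and 5.18), RNF123 of the KPC complex (4.99) and RNF26 (2.58). The same list alone held RNF41 (9.49), RNF130 (4.52), RNF185 (4.03), RNF214 (3.29), the Wnt-receptor ligase RNF43 (2.50), RNF19B (2.94 and 2.65) and RNF31, the catalytic part of the linear chain assembly complex (1.87 and 2.64). The RNF130 peak lies wholly upstream of the gene span, and whether its reads came from RNF130 cannot be told from the lists. Replicate 1 alone held RNF114 (9.89), RNF24 (7.42), the cullin partner RNF7 (4.30) and RNF166 (2.70). High and low folds were thus present among the genes of a single list. None of these peaks in 1 list reached a -log10 p above 6.33.

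The TRIM proteins, most of them RING ligases with a B-box and a coiled coil, had peaks in 12 of 77 genes. Of these, 8 were in both lists, 2 in replicate 1 alone and 2 in replicate 2 alone. TRIM11 had a peak of similar strength in both lists, with folds of 7.78 in replicate 1 and 6.04 in replicate 2 and a -log10 p of 32 in replicate 1 and 32.4 in replicate 2. The 3 TIF1-type chromatin regulators TRIM24, TRIM28 and TRIM33 all had shared peaks. TRIM24, a nuclear receptor cofactor, had 5.18 in replicate 1 and 12.2 in replicate 2. TRIM33, a regulator of SMAD4, had 3.84 in replicate 1 and 13.9 in replicate 2, a ratio of 3.62. Both were higher in replicate 2, where their peaks were also longer (209 nt in replicate 1 and 388 nt in replicate 2 for TRIM24, 61 nt in replicate 1 and 361 nt in replicate 2 for TRIM33).

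TRIM28, the corepressor that KRAB zinc finger proteins recruit, held 3 shared peaks along chr19:58544499-58550715. The first had folds of 4.74 in replicate 1 and 3.05 in replicate 2. The second had 1.60 in both lists, and the third, at the 3′ end, had 1.35 in replicate 1 and 1.59 in replicate 2. The TRIM28 folds thus lay lowest toward the 3′ end in both lists. TRIM8, a cytokine-signalling ligase, had 2 shared peaks, each with the same bounds in both lists, with folds of 2.28 and 1.70 in replicate 1 and 2.65 and 1.78 in replicate 2. TRIM71, the stem cell RNA-binding protein LIN41, had a peak in replicate 2 alone (3.30), as did TRIM47 (2.83), while TRIM50 (3.90) and TRIM41 (3.93) had peaks in replicate 1 alone.

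The F-box proteins are the adaptors of SCF ligases, and 20 of 63 had a peak, with 11 in both lists, 3 in replicate 1 alone and 6 in replicate 2 alone. The leucine-rich FBXL genes had a median fold of 7.485 over 8 peaks in replicate 1 and 6.33 over 13 peaks in replicate 2, of which FBXL19 supplied 3 in replicate 1 and 6 in replicate 2. FBXL19, a CpG-island-binding F-box protein, had the highest folds of all members. Its 3 shared peaks lay near the 3′ end of the gene on chromosome 16, with midpoints 1251, 953 and 149 nt from that end in replicate 1 and 1311, 968 and 164 nt from it in replicate 2. The first (chr16:30947502-30947562 in replicate 1, chr16:30947383-30947562 in replicate 2) had folds of 37.1 in replicate 1 and 31.6 in replicate 2. The second (chr16:30947741-30947919 in replicate 1, chr16:30947651-30947979 in replicate 2) had 12.4 in replicate 1 and 38.0 in replicate 2. The third, at the 3′ end, had 8.90 in replicate 1 and 9.14 in replicate 2.

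The FBXL19 p-values were not strong beside those folds: the -log10 p of the 3 peaks lay between 4.2 and 6.0 in replicate 1 and between 4.34 and 6.47 in replicate 2. The value 37.1 is 5 times the commonest fold of replicate 1, and 31.6 and 38.0 are 5 and 6 times the commonest fold of replicate 2 within rounding, so these folds fall on steps that many other peaks share. Replicate 2 held 3 more FBXL19 peaks nearer the 5′ end, at folds of 3.49, 2.60 and 3.38. In replicate 2 the high folds were thus at the 3′ part of the gene, and replicate 1 held no FBXL19 peak nearer the 5′ end to compare.

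FBXL6 had 19.8 in replicate 1 and 10.1 in replicate 2 at a 5′-end peak. FBXL14, which targets the transcription factor SNAIL, had 5.05 in replicate 1 and 5.42 in replicate 2. FBXL17, a quality-control adaptor for BTB proteins, had peaks in both lists that did not overlap, 3.93 in replicate 1 and 7.12 and 4.52 in replicate 2. FBXL20 had a peak in replicate 1 alone (6.07) and FBXL18 in replicate 2 alone (12.7).

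Of the FBXO genes 5 were in both lists and 5 in replicate 2 alone. FBXO11, an adaptor for the repressor BCL6, had nearly equal folds, 5.56 in replicate 1 and 5.69 in replicate 2. FBXO33 had 2.89 in replicate 1 and 2.92 in replicate 2. FBXO42 had 6.68 in replicate 1 and 4.07 in replicate 2, and FBXO17 had 2.97 in replicate 1 and 6.33 in replicate 2, both at 5′-end peaks. Of these, only the replicate 1 peak of FBXO42 and the replicate 2 peak of FBXO17 reach into the stretches printed above. In replicate 2 alone were FBXO45 (11.4), FBXO41 (5.69 at each of 2 peaks), the mitophagy factor FBXO7 (3.64) and FBXO31 (2.38).

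FBXO2, which binds glycoproteins rich in mannose, and its close relative FBXO44 lie side by side on chromosome 1 on opposite strands. FBXO2 had 2 shared spliced peaks, with folds of 2.18 and 2.63 in replicate 1 and 2.57 and 2.02 in replicate 2. In replicate 2 an FBXO2 peak on the minus strand (chr1:11650667-11654595, fold 3.40) and an FBXO44 peak on the plus strand (chr1:11654375-11655839, fold 3.74) overlapped by 207 nt. No other member peak overlapped a peak of another gene. The libraries were stranded per the labels' kit, but whether the authors used strand when placing reads is not given, so these peaks cannot be assigned with certainty to either gene.

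The FBXW genes, adaptors with WD40 repeats, had no shared peak. FBXW5 had an internal peak in replicate 1 (4.17) and a 3′-end peak in replicate 2 (2.78). FBXW2 (4.53) and FBXW11, the second β-TrCP protein (3.44), had peaks in replicate 1 alone. The KLHL proteins, adaptors of CUL3 ligases, had peaks in 4 of 37 genes. KLHL5 had a spliced 270-nt peak with the same bounds in both lists (chr4:39044891-39062622), with folds of 3.91 in replicate 1 and 3.41 in replicate 2 and a -log10 p of 38.9 in replicate 1 and 19.8 in replicate 2. KLHL36 had 3.90 in replicate 1 and 3.58 in replicate 2 at different places. KLHL17 (5.42 and 5.58) and KLHL23 (12.7) had peaks in replicate 2 alone, and the KLHL23 peak also lies in the span of the readthrough gene PHOSPHO2-KLHL23.

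The USP deubiquitinases had peaks in 13 of 77 genes, with 7 in both lists, 3 in replicate 1 alone and 3 in replicate 2 alone. USP25 had the highest shared folds, 9.89 in replicate 1 and 10.3 in replicate 2, at a 5′-end peak that began 43 bases downstream of the RefSeq start in both lists (chr21:15730025-15730115 in replicate 1, chr21:15730025-15730144 in replicate 2). The value 9.89 was held by 21 peaks of replicate 1. USP7, which stabilises MDM2 and p53, had 5.94 in replicate 1 and 7.35 in replicate 2, with the strongest p-values of the class (-log10 p 12.1 in replicate 1 and 22.0 in replicate 2). USP9X, an X-linked deubiquitinase, had 7.42 in replicate 1 and 6.33 in replicate 2, the commonest fold of each list. USP31 had 6.18 in replicate 1 and 4.87 in replicate 2. USP5, which takes free ubiquitin chains apart, had 3.04 in replicate 1 and 3.66 in replicate 2. These 5 pairs each lay within 1.5 times.

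USP22, the histone H2B deubiquitinase of the SAGA complex, was the exception with 6.68 in replicate 1 and 2.51 in replicate 2. USP36, a nucleolar deubiquitinase, had 2.01 in replicate 1 and 4.11 in replicate 2 at different places. USP33 (9.89), the proteasome-bound USP14 (3.87) and USP42 (3.11) had peaks in replicate 1 alone. USP48 (9.49), USP21 with 3 peaks (3.16, 2.94 and 2.92) and USP11 (1.78) had peaks in replicate 2 alone. Of the OTUD proteases, OTUD1 had a shared peak with folds of 5.86 in replicate 1 and 5.33 in replicate 2, and OTUD3 had a peak in replicate 2 alone (10.1).

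Of the 53 members in both lists, 11 (20.75%, against 12.3% of all genes in both lists) had no shared peak. They were FBXL17, FBXW5, KLHL36, RNF122, RNF25, RNF44, TRIM15, TRIM44, TRIM65, UBE3A and USP36, which were singled out after their values were seen. The peaks of RNF44, TRIM15 and TRIM44 overlapped between the lists by less than 50% of the shorter peak, and those of the other 8 did not overlap. RNF44 had a fold of 17.3 in replicate 1 and 4.97 in replicate 2 at such a pair. RNF25 had 2.66 in replicate 1, inside the gene, and 12.7 in replicate 2, at its 3′ end. TRIM44 had 5.40 in replicate 1, and 7.12 and 4.32 in replicate 2. RNF122 had 3.42 in replicate 1 and 4.09 in replicate 2, TRIM65 had 2.89 in replicate 1 and 3.0 in replicate 2, and TRIM15 had 2.97 in replicate 1 and 5.80 in replicate 2.

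Across the 50 shared member peaks, Spearman's rho of the folds in the 2 lists was 0.60, against 0.80 across 2128 shared peaks of all genes. This is a description: the points share their libraries and the authors' peak calling. The folds lay within 1.5 times of each other at 31 member pairs (62%, against 72.6% of all pairs) and differed by more than 2 times at 10 (20%, against 10.8% of all pairs). The median ratio of the larger to the smaller fold was 1.28 for members and 1.25 for all pairs. The 5 members' pairs farthest apart were those of UBE2S, RNF11, TRIM33, UBE2K and the second FBXL19 peak. Among their folds, 12.7 of UBE2S in replicate 2 and 8.90 of RNF11 in replicate 1 are recurring values, held by 54 and 28 peaks of those lists. The 5 closest were the second TRIM28 peak and those of RNF126, FBXO33, FBXO11 and the third FBXL19 peak. Bounds were identical in both lists at 8 member pairs (16.0%, against 10.3% of all pairs). Of the 50 pairs, 47 fell in the same position class in both lists: 16 at the 5′ end, 28 inside and 3 at the 3′ end. Over all pairs 2008 of 2128 (94.4%) did so, about the same share.

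**Figure D4:**
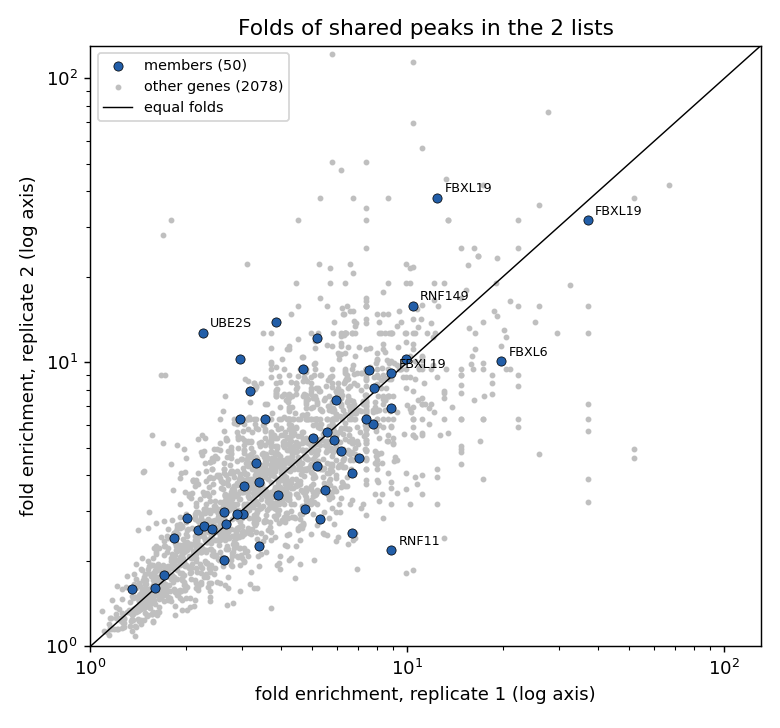
Fold enrichment of shared peaks in replicate 1 (x, log axis) and replicate 2 (y, log axis) for the 50 member pairs and the pairs of other genes, with the line of equal folds. UBE2S (2.26 in replicate 1, 12.7 in replicate 2) and RNF11 (8.90 in replicate 1, 2.18 in replicate 2) lie farthest from the line among the members, and FBXL19 peaks have the highest fold in each list, 37.1 in replicate 1 and 38.0 in replicate 2.

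Genes of the ubiquitin pathway that the name rule leaves out were followed through 7 lists of 209 genes, of which 75 had a peak and 38 (50.7% of the 75) had peaks in both lists, near the 51.7% of all genes. Their median fold was 4.12 in replicate 1, against 3.71 over all peaks, and 4.03 in replicate 2, against 3.87 over all peaks. Of all coding genes in RefSeq 18.7% had a peak in either list, the share to set beside the counts of each list that follow. Of ubiquitin genes and E1 enzymes, 6 of 18 had a peak and 2 were in both lists. SUMO3, which encodes a ubiquitin-like protein, had 7.42 in replicate 1 and 7.38 in replicate 2. Of cullin-RING scaffolds and regulators, the partners of the F-box and KLHL adaptors, 4 of 32 had a peak. The substrate receptor VHL had 4.95 in replicate 1 and 6.33 in replicate 2, CUL5 had 4.72 in replicate 1 and 8.86 in replicate 2, and CUL3 had 4.15 in replicate 1 and 3.75 in replicate 2.

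Of HECT and RBR ligases with other names, 9 of 21 had a peak and 6 were in both lists, led by ARIH1, an RBR ligase that works with cullin-RING ligases (6.15 in replicate 1, 10.7 in replicate 2). Of other RING and U-box ligases, 24 of 46 had a peak and 13 were in both lists. KCMF1 led them after ZFP91, with 18.7 in replicate 1 and 15.1 in replicate 2. A list of other deubiquitinases and SUMO proteases held 31 genes, of which 7 had a peak and 2 were in both lists. Of the 31, 5 are SENP genes, which encode SUMO proteases, and 3 of the 5 had a peak. SENP3 had 10.4 in replicate 1 and 12.7 in replicate 2. Of the other 26 genes 4 had a peak, and the tumour suppressor BAP1 was the 1 gene in both lists (14.8 in replicate 1, 4.38 in replicate 2).

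Of the proteasome subunits and activators 11 of 40 had a peak and 5 were in both lists, with PSME4, a proteasome activator, at 7.42 in replicate 1 and 8.22 in replicate 2. Of p97 cofactors and ubiquitin receptors, which carry ubiquitinated proteins to the proteasome, 14 of 21 had a peak and 7 were in both lists. UBQLN4 had 14.8 in replicate 1 and 9.49 in replicate 2, and UBQLN1 had 9.27 in replicate 1 and 6.66 in replicate 2. NPLOC4, a p97 cofactor, had 6.36 in replicate 1 and 5.85 in replicate 2.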

How the data were processed

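Poly(A) RNA of HepG2 was sequenced as 2 m7G IP and 2 input samples, from stranded libraries per the labels' protocols. Per the submitters' processing notes, STAR is listed with no version or role, and so is the build GRCh38. For the peak caller and its filters nothing is given in the sources used here. Per the file headers, the columns of a deposited list hold position, exon blocks, gene name, p-value, log10 p and log10 FDR (used as scores of the authors' caller) and a fold enrichment (a ratio above 1, whose scaling the headers do not name). In 9 peaks of the first list and 4 of the second the authors' p-value is 0, so the log10 p score was used for ranking. The -log10 of the weakest deposited FDR is 1.32.

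Members were taken by name, and all 96 names matched RefSeq (GRCh38.p14), which also gave gene spans and start windows. Of the peaks, 3352 in replicate 1 and 4739 in replicate 2 could be placed on a gene span. Shared peaks were matched 1 to 1 within gene and strand. No test was run: members were set beside all peaks or genes, with 95% Wilson intervals that cover counting error only. Named genes were, per class, up to 8 with a shared peak by the lower rank of their folds and up to 3 in 1 list by p, then the 5 with most peaks, with folds most alike or most apart, or with the smallest p, the shared 3′-end peaks, and up to 3 per other pathway list by fold. Some genes that this rule names are left out here. Members named beyond that were chosen after their values were seen. The members and lists were chosen with earlier results of these data known. The overlap matching was tested on unspliced replicate 1 peaks, 1 per gene, set against shifted copies of themselves. The midpoint rule was tested on made-up blocks, and the counts were not tested in this way. Alternatives were other overlaps, windows, stricter p, each list alone, unspliced peaks, the highest fold per gene and current symbols. Leaving out recurring folds and using the nearest RefSeq start were added after seeing the data. Scripts ran in Python 3.11.15 with pandas 2.3.3, numpy 2.4.6, matplotlib 3.10.9 and, for intervals, scipy 1.17.1.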

Additional observations from a re-analysis of the deposited data

How the results depend on the processing

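Member genes in both lists made up 55.2% by name, against 51.7% of all genes. When a peak had to overlap by 50% of the shorter, they made up 43.75%, 42 of 96 members, against 1708 of all 3769 genes. The members' share was thus not above that of all genes by this rule. It was 20.8% at 80% of each peak, and 44.6% among peaks in the better 50% of their list by p. The shares of all genes in these last settings are not given here. The median fold of 3.99 became 4.78 in that stricter set, 4.425 with the highest fold per gene, 4.37 for unspliced peaks and 3.365 without fold values held by 20 or more peaks, a setting chosen after seeing the data. The share of 5′-end peaks, 31.1%, was 45.2% within 500 nt, 11.2% within 100 nt and 40.4% by the nearest edge. Shared peaks were 54.0% of member peaks and 23.75% at 80% of each peak, which needs more overlap by construction. Spliced peaks were 19.9%, and 27.35% with the smallest p. With 1 replicate left out, the median fold ranged between 3.90 and 4.08, the 5′-end share between 26.3 and 35.9%, and the spliced share between 19.3 and 20.5%; a single list gives no value for genes or peaks in both. The ratio of folds stayed between 1.22 and 1.30 in its 4 alternatives. At 80% overlap it rests on 22 pairs. The cause of the other shifts was not tested. No paired analysis was possible because values of input samples were not used. Depth is unknown from these lists, so how far it sets which members were called cannot be told.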
